A study of Equus caballus with 11 samples.

Results

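Isolated CpGs are CpG dinucleotides that stand far from any CpG-dense stretch of the horse genome and nearly alone among the CpGs read around them. They were chosen by position and depth, without use of their methylation. Chromosomes 1 to 31 of the EquCab3.0 assembly were cut into windows of 1000 bp, and a window was called dense when at least 30 different CpGs were listed in it in any of 11 libraries. A CpG counted as isolated when it had at least 10 reads in all 11 libraries, lay more than 10 kb from the edge of the nearest of the 15390 dense windows, and had at most 1 other listed CpG within 100 bp. This held for 18303 of the 68147 CpGs with at least 10 reads in every library (26.9%), which are called common CpGs here. Without the depth requirement 350398 of 3123176 listed CpGs met the rule, and 5.22% of them reached the depth, against 2.18% of all listed CpGs.

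The libraries came from heart (left ventricle), lung (caudal lobe of the right lung) and liver (right lobe) of 4 healthy cold-blooded stallions aged 1 to 2 years, with no treatment in any group. There were 4 heart libraries, 4 lung libraries and 3 liver libraries, since liver of horse 3 was not analysed here. DNA was taken from whole tissue, so each level is an average over all the cell types in the piece sampled. The assay was reduced representation bisulfite sequencing (RRBS). It reads short fragments that begin at CCGG sites and tells methylated from unmethylated cytosines after bisulfite treatment. The methylation level is the percent of reads at a CpG that still showed C. A T in the DNA of a horse would also be counted as an unmethylated C, and sequence variants were not examined.

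In mammals a methyl group is carried mainly by cytosines followed by guanine. Methylated cytosines mutate readily, and over evolution most of the genome has lost many of its CpGs, which leaves single, usually methylated CpGs between short CpG-dense stretches, the CpG islands, that often cover promoters and mostly lack methylation. Tissues differ in methylation at distal regulatory sequence as well as near genes, and such sequence is often poor in CpGs. RRBS was designed for the dense stretches, and the CpGs it reads far from them are those that lie close to a CCGG site.

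The distance from an isolated CpG to the nearest dense window was 110 kb in the median, 21 kb at the 10th percentile and 609 kb at the 90th, and reached 5.38 Mb. No other CpG was listed within 100 bp of 7512 of them (41.0%), and exactly 1 was listed near the other 10791 (59.0%). The name holds less well on a wider scale. Within 1 kb the median isolated CpG had 3 other listed CpGs, against 10 for the common CpGs, but 495 isolated CpGs (2.70%) had more than 20 and the highest number was 53. Listing depends on the reads, so a CpG counted as alone may have unread CpGs beside it. Every chromosome held isolated CpGs, from 239 on chromosome 30 to 1535 on chromosome 1.

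Depth differed between the libraries. Liver of horse 2 was the shallowest with 3255257 reads over its listed positions, and liver of horse 1 the deepest with 25109840. The median isolated CpG was read 15 times in liver of horse 2 and 50 times in heart of horse 1, the extremes, and this median differed by at most 1 read from the median over all common CpGs of the same library. A level of 80% read at depth 15 had a 95% Wilson interval from 54.8% to 93.0%, and at depth 50 from 67.0% to 88.8%. These intervals cover counting error only, because reads at one position can be PCR copies.

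Isolated CpGs were highly methylated in all tissues. Heart averaged 77.4% ± 0.639 (SD, n = 4), lung 77.7% ± 0.668 (n = 4) and liver 77.2% ± 0.955 (n = 3). By library the means were 76.6%, 77.5%, 78.2% and 77.4% in heart of horses 1 to 4, 77.7%, 78.4%, 76.8% and 77.8% in lung, and 78.1%, 76.2% and 77.2% in liver of horses 1, 2 and 4. The ranges of the tissues overlapped. The median level was 84.7% ± 1.02 over the 11 libraries, above the mean, since a tail of CpGs reached down to low levels. In an average library 60.7% ± 1.85 of isolated CpGs stood at or above 80%, 35.8% ± 1.84 between 20% and 80%, and 3.49% ± 0.418 at or below 20% (SD, n = 11).

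The mean level of the isolated CpGs was not shown to differ between tissues. Lung exceeded heart by 0.237 percentage points (exact 2-sided permutation p = 0.629, adjusted p = 0.971 over 9 tests by Benjamini-Hochberg). Between lung and liver the difference was 0.480 points in favour of lung, with p = 0.457 in the exact permutation test and 0.971 after adjustment. Between heart and liver it was 0.243 points in favour of heart (p = 0.657 by the same exact test, 0.971 adjusted). Of the shares, only that at or below 20% reached an unadjusted p of 0.0286 by the exact permutation test, the smallest that 4 libraries against 4 allow, with 3.20% ± 0.241 in lung (SD, n = 4) against 3.65% ± 0.187 in heart (n = 4). After adjustment over the 9 tests that p was 0.257.

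The other common CpGs were less methylated in every library. Their mean level was 65.7% ± 0.594 over the 11 libraries (SD), and isolated CpGs stood above them by 11.7 points on average, by 10.9 points in the library with the smallest gap and by 12.6 points in the one with the largest. With 4 horses the exact sign-flip test cannot give a p below 1 in 8, the value it took. The 2 sets of CpGs differed mainly at the bottom of the range. Only 1.49% of isolated CpGs had a mean level below 10%, against 13.9% of the other common CpGs, while 29.6% and 28.5% had a mean of 90% or more. By tissue the gap was 12.2 points ± 0.296 for heart (SD, n = 4), 11.6 ± 0.581 for lung (n = 4) and 11.3 ± 0.299 for liver (n = 3). The largest difference between tissues, 0.95 points between heart and liver, had an exact permutation p of 0.0286 and an adjusted p of 0.0857 over the 3 tissue comparisons.

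Level did not climb evenly with distance from the dense windows. CpGs inside dense windows averaged 53.2% ± 0.972 over the 11 libraries (SD), and 35.1% of them stood at or below 20% in an average library. CpGs outside but within 2 kb of one averaged 45.3% ± 0.512, the lowest of the sets. Those at 2 to 10 kb averaged 69.4% ± 0.597, and CpGs beyond 10 kb that had at least 2 listed neighbours within 100 bp averaged 72.6% ± 0.633. Isolated CpGs lay above all of these sets in all 11 libraries.

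**Figure D1:**
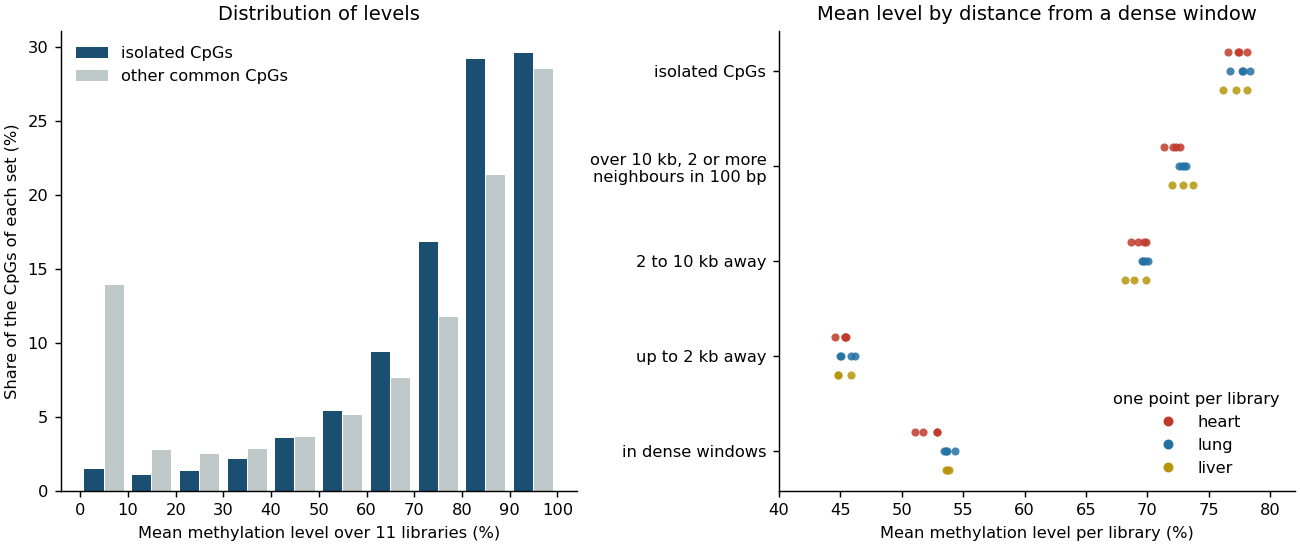
Left, share of the isolated CpGs and of the other common CpGs (y axis, percent of each set) by mean methylation level over 11 libraries (x axis, bins of 10 points). Right, mean level of 5 sets of CpGs (x axis, percent), with one point per library coloured by tissue; the isolated CpGs lie between 76.2% and 78.4% and the CpGs up to 2 kb from a dense window between 44.5% and 46.2%.

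Among the isolated CpGs themselves, level rose a little with distance. The 1693 at 10 to 20 kb averaged 76.1% ± 0.557 over the 11 libraries (SD), and the 2452 at over 500 kb averaged 78.6% ± 1.15. The 6101 farthest, beyond 199.995 kb, exceeded the 6101 nearest, within 59.2 kb, by 2.08 points on average. That difference was positive in 11 of 11 libraries and ran from 0.605 points in lung of horse 3 to 2.94 points in lung of horse 2 (exact sign-flip p of 1 in 8 over 4 horses, the smallest it can give). Its size depended on the limits of the rule, since it was 0.842 points between the farthest and nearest among members beyond 50 kb and 1.24 points when windows of 20 listed CpGs counted as dense. CpGs with no listed neighbour within 100 bp exceeded those with 1 neighbour by 2.19 points, again in 11 of 11 libraries, with a range of 1.70 to 2.49 points and the same p.

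The number of listed CpGs within 1 kb went with a larger difference in level than distance did. With none, 1, or 2 to 3 others listed the mean levels were 79.1%, 79.5% and 79.2%, and the ranges over libraries overlapped. With 7 to 10 listed the mean was 76.5% ± 0.623 (SD, n = 11), with 11 to 20 it was 72.6% ± 0.846, and for the 491 CpGs with 21 to 50 listed it was 61.5% ± 0.965. In that last set 17.5% had a mean level at or below 20%, against 0.806% of the 1364 CpGs with none listed within 1 kb. The 4 CpGs with more than 50 listed averaged 0.372%. The 491 CpGs thus lay below CpGs 2 to 10 kb from a dense window and above those closer to one, although no dense window lay within 10 kb of them.

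**Figure D2:**
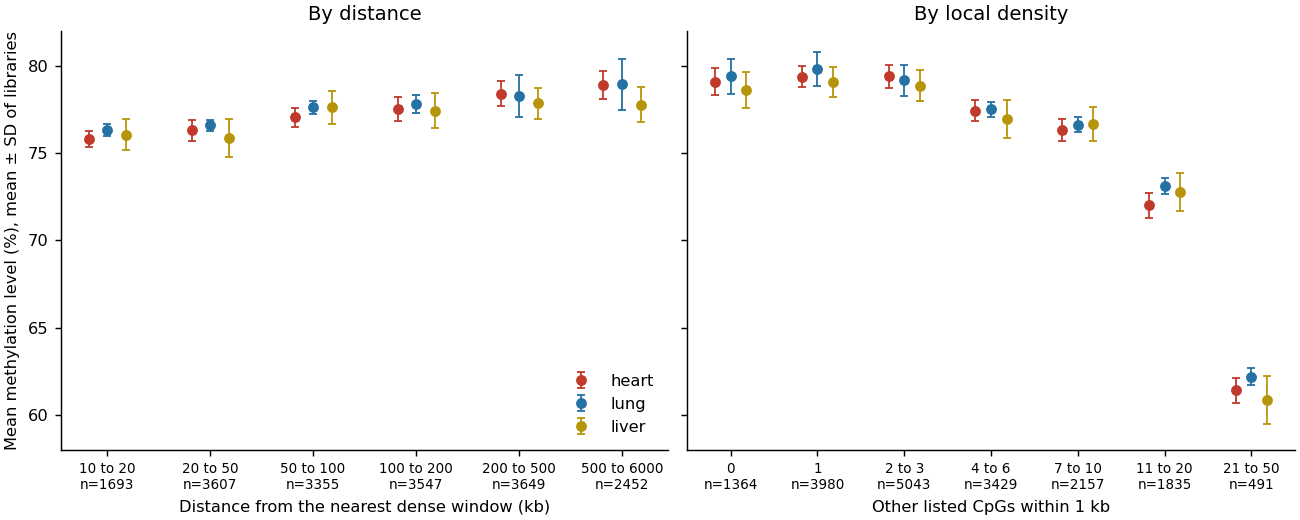
Mean methylation level of isolated CpGs (y axis, percent, from 58% up; mean ± SD of the libraries of each tissue) by distance from the nearest dense window in kb (left) and by the number of other listed CpGs within 1 kb (right; the set of 4 CpGs with more than 50 is not drawn). Over all libraries the level goes from 76.1% to 78.6% with distance, and from 79.1% with none listed to 61.5% with 21 to 50 listed CpGs.

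At the limits of the rule the levels were as follows. The 199 isolated CpGs between 10 and 11 kb from a dense window averaged 74.0%, and the 167 CpGs between 9 and 10 kb that met the other conditions averaged 77.2%. CpGs with 2 neighbours within 100 bp, just outside the rule, averaged 74.7%, those with 1 neighbour 76.5% and those with none 78.7%. By chromosome the mean ran from 74.3% ± 0.90 on chromosome 22 to 80.5% ± 0.797 on chromosome 17 (SD, n = 11).

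Neighbouring isolated CpGs had similar but not equal levels. There were 3979 pairs of isolated CpGs within 100 bp of each other, and such pairs can share reads. Across pairs, which are not independent replicates, Pearson's r of the 2 levels was 0.654 in the median library (0.601 to 0.689 over 11 libraries). It was 0.771 for the 644 pairs at most 10 bp apart and 0.513 for the 813 pairs 51 to 100 bp apart. The mean levels of the 2 CpGs differed by more than 25 points in 3.73% of the closest pairs and in 14.5% of the widest. Where both strands of a CpG had at least 10 reads in every library, which held for 63 isolated CpGs, the plus strand averaged 80.2% and the minus strand 80.1%.

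Many isolated CpGs stayed in one range of levels in all tissues. In all 11 libraries 4873 of them (26.6%) stood at or above 80%, and the share among all common CpGs was also 26.6%. A further 1305 (7.13%, against 7.30% of common CpGs) lay between 20% and 80% in every library. At the other end 242 (1.32%, against 9.99%) were at or below 20% in all 11. Of these, 68 (28.1%) had more than 20 listed CpGs within 1 kb, and their median number listed was 12, against 3 for the CpGs that were high throughout.

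No read with C was counted in any library at 18 isolated CpGs. The 5 of them with the highest depth in their shallowest library included chromosome 11 position 34036198, with 0 methylated of 386 reads, which allows a level of up to 0.777%. Limits of this kind are 3 reads over the number read, here with all libraries pooled, and cover counting error only. In the shallowest library, with 19 reads, the limit was 15.8%. This CpG had 39 other CpGs listed within 1 kb, although the nearest dense window was 319 kb away. At chromosome 21 position 2783248 the count was 0 of 502 reads (up to 0.598%), and at chromosome 23 position 49466519 it was 0 of 346 (up to 0.867%). Isolated neighbours 64, 49 and 44 bp from these 3 CpGs were also nearly unmethylated, with tissue means between 0% and 6.81%. The remaining 2 had other surroundings. Chromosome 14 position 16024799 had 0 of 381 reads (up to 0.787%), 2.52 Mb from a dense window and with 1 other CpG listed within 1 kb. Chromosome 16 position 83261202 had 0 of 381 reads (up to 0.787%), while the isolated CpG 59 bp away stood at 33.9% ± 6.33 in heart, 34.6% ± 6.57 in lung and 23.5% ± 4.32 in liver (SD, n = 4, 4 and 3).

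The 3 isolated CpGs farthest from a dense window all lay on chromosome 21, more than 5.1 Mb from one. Position 39531664, 5.38 Mb away, stood at 50%, 58.2%, 44.4% and 56.5% in heart of horses 1 to 4, at 64.1%, 90.2%, 73.3% and 96% in lung, and at 87.7%, 78.9% and 85.7% in liver of horses 1, 2 and 4. Every heart library was below every lung and liver library there. Position 39040244 averaged 73.9% and position 39011254 averaged 87.9% over the 11 libraries, and in both the ranges of the tissues overlapped.

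Libraries of one tissue resembled each other at the isolated CpGs more than libraries of different tissues did. Across the 18303 CpGs, Pearson's r averaged 0.856 over the 15 pairs of libraries of the same tissue and 0.723 over the 40 pairs of different tissues, a gap of 0.133. Over the other common CpGs the averages were 0.940 and 0.899, a gap of 0.0411. The 2 sets share libraries and depth but not the spread of levels, which is wider among the other CpGs, and r moves with that spread. Between tissues of the same horse r averaged 0.738 over 10 pairs, and between tissues of different horses 0.719 over 30.

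The comparisons between pairs of tissues asked which CpGs differ in level. Each CpG was tested by logistic regression on its read counts with a dispersion moderated across CpGs, on every CpG with at least 10 reads in each library of the pair, and was called when its adjusted p was under 0.01 and its depth-weighted levels lay at least 25 points apart. All 18303 isolated CpGs were tested in each comparison. In lung against heart 735 (4.02%) were called, against 2.71% of all CpGs tested and 3.05% of the common CpGs. In lung against liver 901 (4.92%) were called, against 3.82% and 3.92%, and in heart against liver 1295 (7.08%), against 5.84% and 6.01%. At least 1 comparison called 1981 isolated CpGs (10.8%), against 8.87% of the common CpGs.

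Isolated CpGs were thus called somewhat more often than the CpGs as a whole, and several times as often as CpGs in dense windows, of which 0.727%, 0.875% and 1.46% were called in the same order. The 68147 common CpGs include 10175 in dense windows, which lowers their called share. The share among the 28347 CpGs beyond 10 kb with at least 2 listed neighbours within 100 bp was not counted. Whether the higher share is particular to isolated CpGs is therefore not shown. The difference between the shares was not tested, since CpGs are not replicates. A CpG near 0% or 100% has little room to differ by 25 points in one of the directions, and few isolated CpGs were near 0%, so the shares were also taken by level. Among CpGs with a mean level of 50% to 80%, 23.6% of the isolated and 20% of the other common CpGs were called in at least 1 comparison. Between 20% and 50% the shares were 29.1% and 24%, and at 80% or more they were 2.01% and 1.63%. Below 20% they were furthest apart in proportion, with 24 (5.10%) of 471 isolated CpGs and 146 (1.75%) of 8327 other common CpGs. Levels were not alike within that range. The mean was below 10% at 273 of these isolated CpGs and at 6946 of the others, a larger part, which left the others less room to differ.

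**Figure D3:**
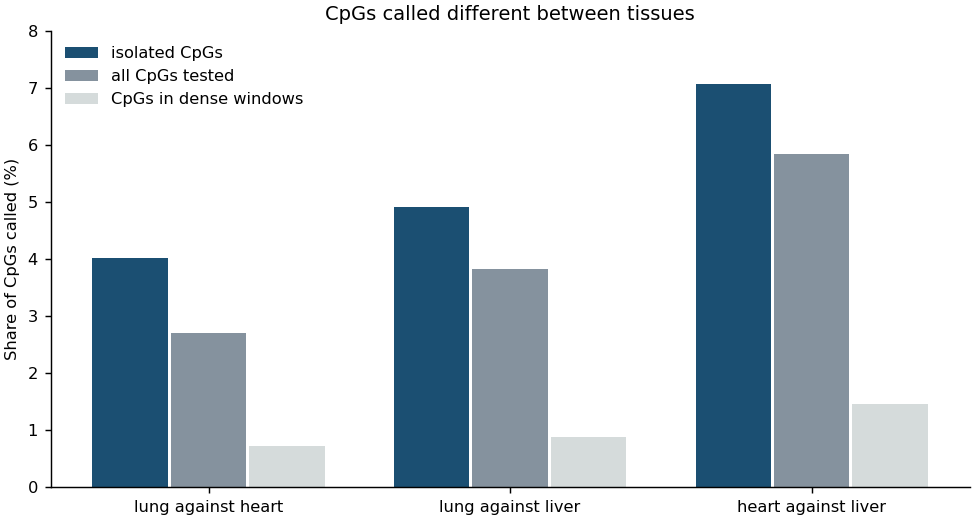
Share of CpGs called different between tissues (y axis, percent, from 0) in each comparison, for the isolated CpGs, all CpGs tested in that comparison and the common CpGs in dense windows. Isolated CpGs were at 4.02%, 4.92% and 7.08% against 2.71%, 3.82% and 5.84% of all CpGs tested; bars carry no error because each is a share of 1 fitted set of CpGs.

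The calls went in both directions. In lung against heart 396 called isolated CpGs were higher in lung (53.9% of the calls) and 339 lower. Over all CpGs tested 56.7% of the calls were higher in lung, with 1.54% of the CpGs called higher and 1.17% lower. In lung against liver 544 were higher in lung (60.4%) and 357 lower. Over all CpGs tested it was 59.5% of the calls, with 2.27% of the CpGs called higher and 1.55% lower. In heart against liver 677 were higher in heart (52.3%) and 618 lower. Over all CpGs tested it was 51.4% of the calls, with 3.00% of the CpGs called higher and 2.84% lower. A called isolated CpG typically stood near 80% in one tissue and near 40% in the other. In heart against liver, for example, the median level was 82.8% on the higher side and 40.1% on the lower, with a median difference of 37.5 points, and the median absolute difference over all isolated CpGs was 5.52 points. The libraries of the tissues compared did not overlap at 15.3%, 19.5% and 22.6% of the isolated CpGs, called or not, against 11.6%, 16.2% and 19.6% of all CpGs tested.

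These counts depended on how the pairing by horse was treated and on the liver libraries. When the horse was added as a block, the limma-moderated test called 0 isolated CpGs in each comparison, although 4259, 3203 and 3744 had an unadjusted p under 0.05. EdgeR called 698, 784 and 1076 with that block and 495, 671 and 1045 without it. Without liver of horse 1 the counts fell to 548 in lung against liver and 819 in heart against liver, and 73.7% and 65.8% of those calls were then higher in the tissue compared with liver, in place of 60.4% and 52.3%. Without liver of horse 4 lung against liver gave 583, and without liver of horse 2, the shallowest library, the counts were 779 and 1211.

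By distance, fewer of the farthest isolated CpGs were called in the comparisons with liver. Of the nearest 6101, the middle 6101 and the farthest 6101, 5.56%, 5.38% and 3.84% were called in lung against liver and 7.79%, 7.74% and 5.70% in heart against liver. In lung against heart the shares were 3.87%, 4.46% and 3.72%, with no steady order. With no listed neighbour 3.98%, 5.21% and 7.03% were called (heart with lung, liver with lung, heart with liver), and with 1 neighbour 4.04%, 4.73% and 7.11%.

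Liver was the tissue that most often stood apart, as counted after the values had been seen. All liver libraries were below all others by at least 25 points on average at 632 isolated CpGs (3.45%, against 2.74% of common CpGs) and above them at 278 (1.52%, against 1.44%). Heart was lowest in this way at 363 (1.98%, against 1.67%) and highest at 213 (1.16%, against 0.904%). Lung was lowest at 199 (1.09%, against 0.789%) and highest at 124 (0.677%, against 0.528%). Liver has 3 libraries and the other tissues 4, and a smaller group more easily lies clear of the rest. In the CpGs lowest in liver the median level was 38.8% there and 81.6% in the other tissues.

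The CpGs with the largest differences between tissues were the 4 called CpGs of each direction and comparison with the largest depth-weighted difference and the same sign in every horse, which gave 22 different positions. The lower tissue of a comparison averaged 5.13% to 38.4% at them and the higher tissue 68.6% to 99.3%. Their differences ran from 52.4 to 73.0 points, with adjusted p between 3.36e-07 and 1.06e-04 by the moderated quasi-likelihood test. In that test with the horse as a block none of the 24 kept an adjusted p under 0.01, while edgeR with the block kept all 24 calls. At chromosome 16 position 1778684 in lung against heart, for example, the moderated test with the block gave an adjusted p of 0.0185.

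The CpG with the largest difference of any comparison was chromosome 11 position 14314805, 33.8 kb from a dense window. Its levels were 90.5%, 91.4%, 84.6% and 93.3% in heart of horses 1 to 4, 77.8%, 70.5%, 70% and 76.2% in lung, and 14.5%, 23.1% and 19.5% in liver of horses 1, 2 and 4. The 3 tissues did not overlap, and heart exceeded liver by 73.0 points (adjusted p = 5.76e-07). The isolated CpG 54 bp away, position 14314859, had the same order, with 96.8% ± 3.23 in heart, 86.5% ± 7.92 in lung and 39.5% ± 12.7 in liver (SD, n = 4, 4 and 3).

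Liver was far below both other tissues at further CpGs of this kind. At chromosome 16 position 36678707 heart libraries stood at 91.3%, 94.1%, 100% and 93.5%, lung libraries at 84.8%, 76.6%, 85.7% and 81.8%, and liver libraries at 28.1%, 38.5% and 21.8%. Heart exceeded liver by 67.6 points (adjusted p = 3.36e-07 by the moderated test), and the 3 tissues did not overlap. Chromosome 2 position 69940943, with no listed neighbour, averaged 96.1% ± 3.01 in heart (SD, n = 4) and 91.9% ± 10.2 in lung (n = 4), and only 31.4% ± 16.6 in liver (n = 3). Chromosome 11 position 7014442 averaged 88.6% ± 7.71, 83.9% ± 4.41 and 25.6% ± 10.8 in the same order.

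At a pair of CpGs on chromosome 8 the tissues also took 3 separate levels, here with lung the highest. Position 37638686 stood at 100%, 97.1%, 100% and 100% in lung of horses 1 to 4, at 78.7%, 88.6%, 71.4% and 90.9% in heart, and at 36.4%, 14.3% and 15.4% in liver. Position 37638714, 28 bp on, stood at 74.4%, 76.5%, 81.8% and 76.2% in lung, at 43.8%, 42.9%, 23.8% and 40.9% in heart, and at 18.2%, 7.14% and 11.5% in liver. In both CpGs every lung library was above every heart library and every heart library above every liver library. Lung exceeded liver by 72.9 points at the first (adjusted p = 4.09e-07) and by 62.4 points at the second (adjusted p = 3.48e-06). The pair shares reads, so the 2 CpGs are not separate evidence.

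Heart alone was low at several CpGs. At chromosome 18 position 39917289, with no listed neighbour and 150 kb from a dense window, heart libraries stood at 9.80%, 0%, 0% and 10.7%, lung libraries at 72.7%, 68.6%, 60% and 73.7%, and liver libraries at 72.3%, 66.7% and 85%. The counts of 0 in heart of horses 2 and 3 came from 34 and 23 reads and allow levels of up to 8.82% and 13.0%. Heart did not overlap with the other tissues, and it was lower than lung by 63.3 points (adjusted p = 4.34e-06) and lower than liver by 68.8 points (adjusted p = 3.20e-06). Chromosome 9 position 65629717, 888 kb from a dense window and with no other CpG listed within 1 kb, averaged 16.2% ± 3.65 in heart, 77.8% ± 14.9 in lung and 70.9% ± 3.70 in liver (SD, n = 4, 4 and 3). At chromosome 16 position 1778684 the means were 12.0% ± 3.60, 76.5% ± 8.56 and 70.6% ± 18.2 in the same order.

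Elsewhere heart was low, liver high and lung between them. At chromosome 11 position 19838816 heart libraries stood at 10.2%, 10.7%, 22.2% and 12.5%, lung libraries at 64.9%, 62.5%, 71.4% and 46.4%, and liver libraries at 86.5%, 90% and 82.8%. The 3 tissues did not overlap, and heart was lower than liver by 72.2 points (adjusted p = 1.62e-06).

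Lung alone was low at chromosome 1 position 51276590, with 37.9%, 36.1%, 35% and 44.4% in lung of horses 1 to 4 against 91.9%, 93.9%, 85.7% and 94.1% in heart and 86%, 100% and 81% in liver. The lung libraries lay clear of all others, and lung was lower than heart by 54.2 points (adjusted p = 1.08e-05). At chromosome 14 position 6188454 lung stood at 40%, 24%, 26.3% and 28%, heart at 87.9%, 92.6%, 86.7% and 100%, and liver in between at 64.1%, 58.3% and 66.7%. Chromosome 13 position 21804306 averaged 20.2% ± 10.5 in lung (SD, n = 4), 69.3% ± 6.75 in heart (n = 4) and 87.3% ± 15.3 in liver (n = 3), and lung was lower than liver by 61.8 points (adjusted p = 3.01e-05).

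High levels in one tissue alone also occurred. At chromosome 14 position 78303564 heart stood at 82.5%, 89.8%, 58.8% and 91.2%, lung at 17.5%, 24.5%, 25% and 24%, and liver at 28.4%, 4.35% and 17.6%. Lung and liver overlapped there and heart was above both. At chromosome 29 position 19500272 liver stood at 91.7%, 75% and 94.4%, heart at 19%, 25%, 29.4% and 20%, and lung at 33.3%, 21.4%, 31.6% and 30%, so liver was above both other tissues. It exceeded heart by 65.3 points (adjusted p = 5.11e-05) and lung by 60.5 points (adjusted p = 6.79e-05).

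**Figure D4:**
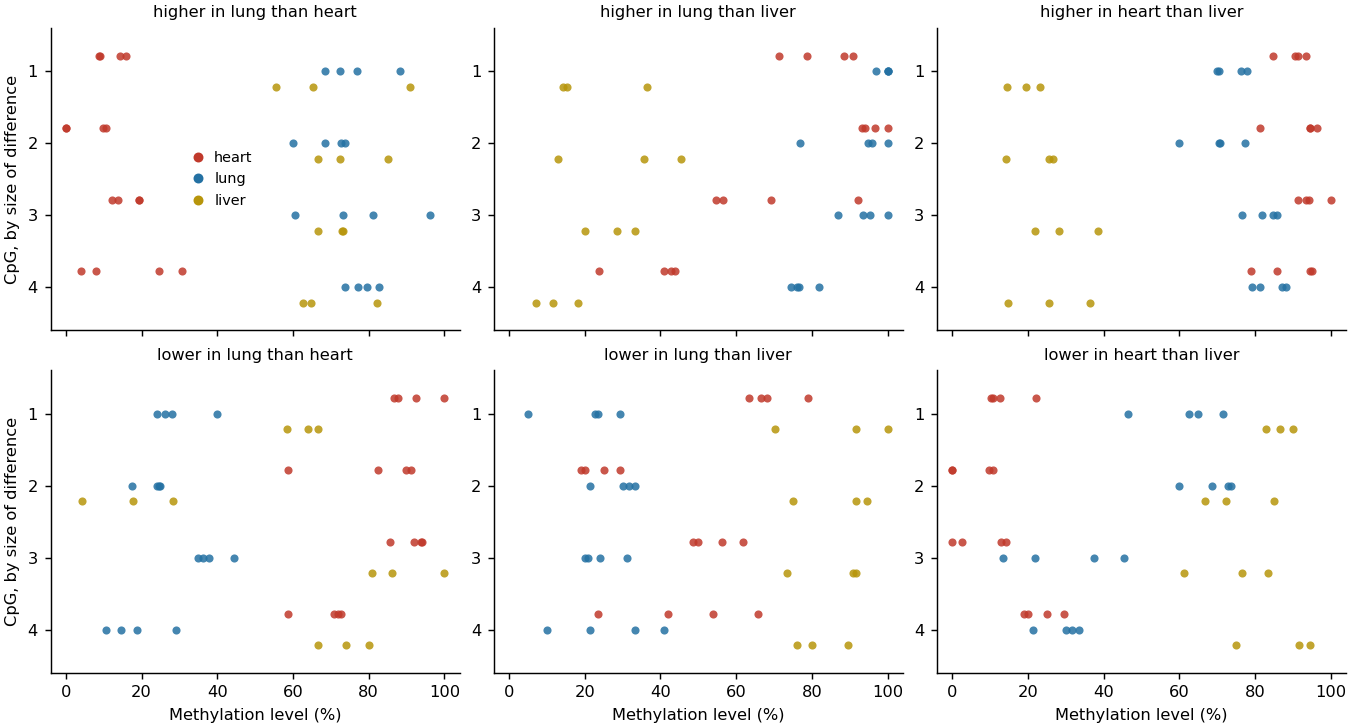
Methylation level (x axis, percent) of the 4 called isolated CpGs with the largest difference in each direction and comparison (y axis, ordered by size of the difference), with one point per library coloured by tissue. The tissues compared in each panel do not overlap, and the tissue that took no part in a comparison lies near one of the others in some rows and between them in others.

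Some called isolated CpGs stood near each other. At most 1 listed CpG within 100 bp is allowed by the rule, which holds down their number. Of the called isolated CpGs 20.7% in lung against heart, 24.0% in lung against liver and 24.9% in heart against liver lay in runs of at least 2 with the same direction, against 47.9%, 52.4% and 53.3% of the called common CpGs. Within a run each CpG lay at most 1000 bp from the next. Runs numbered 43 higher and 33 lower in lung against heart, 77 and 30 in lung against liver, and 92 and 66 in heart against liver. Runs of 3, the longest, numbered 5 with heart above liver, 1 with heart below liver and 2 with lung above liver, and those with the largest mean difference are described. On chromosome 18 between positions 42727637 and 42727851, 3 CpGs averaged 92.2%, 93.9%, 94.3% and 90.6% in heart of horses 1 to 4, 71.4%, 79.5%, 87.3% and 78.3% in lung, and 28.9%, 30.4% and 31.7% in liver. Liver lay far below the other tissues there, and heart above lung.

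In the other runs of 3 described, liver was again the low tissue. On chromosome 7 between 88646950 and 88647184 the means were 80.9% ± 3.58 in heart, 83.0% ± 2.44 in lung and 34.7% ± 7.22 in liver (SD, n = 4, 4 and 3), and this run was called in both comparisons with liver. On chromosome 5 between 52119518 and 52119737 they were 85.4% ± 1.89, 89.6% ± 2.40 and 48.7% ± 5.47, and on chromosome 3 between 89266424 and 89267344 they were 83.1% ± 3.01, 60.6% ± 8.51 and 28.6% ± 9.68. In lung against heart the runs with the largest difference held 2 CpGs each. On chromosome 20 between 43844103 and 43844139, heart averaged 32.7% ± 3.03 while lung averaged 88.4% ± 4.62 and liver 90.4% ± 3.20.

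Single horses stood apart at few isolated CpGs. Counted after the values had been seen, all libraries of 1 horse were at least 50 points below the mean of the rest, with no overlap, at 33 isolated CpGs, and above at 12, together 0.246% of the members against 0.340% of the common CpGs. For horse 1 there were 1 below and 2 above, for horse 2 there were 11 and 3, for horse 3 there were 7 and 3, and for horse 4 there were 14 and 4. The shares for each horse and direction among all common CpGs were 0.0220% and 0.00734%, 0.0792% and 0.0279%, 0.0880% and 0.0249%, and 0.0704% and 0.0205%. Horse 3 has no liver library, and a smaller group of libraries more easily lies clear of the rest.

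The 5 isolated CpGs with the largest spread between horses shared a form in which 1 horse was at or near 0% in all of its tissues, or nearly methylated in all of them. Whether the horses differ in DNA sequence at these CpGs was not tested, and the levels cannot tell such a variant from a lack of methylation. At chromosome 17 position 66851135 horse 2 stood at 2.94% in heart, 0% in lung and 0% in liver, while the other horses stood between 75% and 100% in every tissue. At chromosome 6 position 23983763 horse 4 stood at 3.23%, 0% and 0%, and the other horses between 80.6% and 100%. The zeros in lung and liver rested on 35 and 13 reads at the first CpG, which allow up to 8.57% and 23.1%, and on 22 and 18 reads at the second, which allow up to 13.6% and 16.7%.

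Intermediate levels appeared at the other CpGs of this kind. At chromosome 1 position 15785986 horses 1 and 3 were at 0% in all of their libraries, horse 2 stood at 60.9%, 37.8% and 50% (heart, lung, liver), and horse 4 at 92.6%, 96% and 97.8%. At chromosome 27 position 31270556 horse 2 was at 0% in all tissues, horse 1 at 97.4%, 64.3% and 47.8%, and horses 3 and 4 between 93.8% and 100%. At chromosome 28 position 44095965 horse 4 stood at 100%, 96.2% and 92.9%, and the other horses between 0% and 37.5%.

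Isolated neighbours of these CpGs did not follow them. Of the 5 CpGs, 4 had another isolated CpG within 55 bp, and these neighbours averaged 78.8% or more in each tissue. The neighbour 15 bp from the CpG on chromosome 1 averaged 96.1% ± 3.86 in heart, 96.1% ± 3.55 in lung and 95.7% ± 4.17 in liver (SD, n = 4, 4 and 3). The neighbour 55 bp from the CpG on chromosome 17 averaged 99.1% ± 1.85, 98.3% ± 1.92 and 98.5% ± 2.62.

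**Figure D5:**
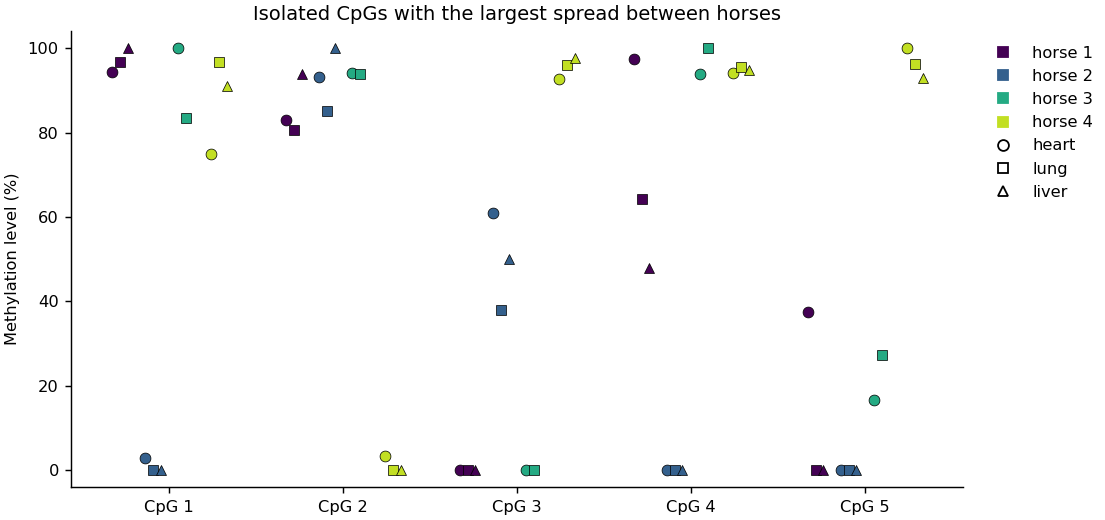
Methylation level (y axis, percent) at the 5 isolated CpGs with the largest spread between horses (x axis, in the order chromosome 17, 6, 1, 27 and 28), with one point per library, coloured by horse and shaped by tissue. Tissues of one horse lie together in most columns, with horse 2 at 0% to 2.94% in the first and horse 4 at 0% to 3.23% in the second.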

How the data were processed

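The authors filtered single-end RRBS reads, mapped them to EquCab3.0 and called methylation from unique alignments. The submitters' processing notes name FastQC and BSMAP without versions. Each deposited file lists CpG cytosines by strand with a read count (coverage) and, as percent values, how many reads had C or T, and leaves out positions under 5 reads. Methylated read counts were taken as coverage times percent C, rounded, and lay within 0.05 points of the deposited percent at 99.8% of positions or more. Strands were combined. Depth and its precision stand in the report. Tissue and horse come from the labels, which name 1 library per tissue and horse.

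CpGs were tested by logistic regression with the Pearson dispersion moderated by squeezeVar of limma 3.58.1 and kept at 1 or above, fitted on all CpGs covered at 10 reads in both tissues (116927, 73050 and 77277), with Benjamini-Hochberg adjustment. Library means were compared by exact permutation tests. The script was tested on simulated data. Alternatives were the replicate block, edgeR 4.0.16, 20 reads, other thresholds, other member rules and each library left out. Same-numbered libraries come from the same horse. Over the isolated CpGs their deviations from the tissue mean had correlations of 0.0365 to 0.161, and those of different horses reached 0.0304. Python 3.11.15, numpy 2.4.6, scipy 1.17.1, pandas 2.3.3, matplotlib 3.10.9 and R 4.3.3 were used.

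The members and the rules were chosen with earlier results of these data known. Named CpGs were the 4 with the largest difference per comparison and direction, the 5 lowest in mean level, the 5 most variable between horses, the 3 farthest from a dense window and up to 3 runs per comparison. No gene annotation of EquCab3.0 was used here, so no CpG was assigned to a gene and no sequence is shown.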

Additional observations from a re-analysis of the deposited data

Results flagged for a closer look

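Heart and lung, with 4 libraries each, were searched for a highest or lowest library far from the others of its tissue, at the 35 named CpGs (70 groups) and in 6 summary values of the isolated CpGs (12 groups). This picked out 9 of the 82 groups, all at named CpGs. Chance gives about 1 in 20 groups for independent values without ties, and that rate does not strictly hold here. The 5 CpGs lowest in mean level were at 0% in every library and had no spread to search. Levels at other CpGs rest on few reads and can be tied, and CpGs close together share reads. At CpGs with large differences between tissues they were 17.5% in lung at chromosome 14 position 78303564, 58.8% in heart at chromosome 18 position 13621680, 97.1% in lung at chromosome 8 position 37638686, 23.8% in heart at chromosome 8 position 37638714 and 81.25% in heart at chromosome 15 position 39799664. The 97.1% was 33 of 34 reads, and the other lung libraries stood at 100% there. At none of these 5 CpGs did the 2 tissues compared overlap, but they were chosen for a large difference, so this largely comes with the choice. Heart took no part in the comparison that named chromosome 8 position 37638714, which was lung against liver.

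At the CpGs with the largest spread between horses they were 0% in lung at chromosome 17 position 66851135, 3.23% in heart and 0% in lung at chromosome 6 position 23983763, and 0% in heart at chromosome 27 position 31270556. These CpGs were chosen for a horse that stood apart, so a library far from the rest comes with the choice.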

How the results depend on the processing

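The excess of isolated over other common CpGs and the differences by distance and by neighbour were positive under every alternative run. The excess was 11.1 points for members with no neighbour. The difference by distance was 0.842 points beyond 50 kb and 1.24 points with dense windows of 20 CpGs, and that by neighbour 2.46 points with 20 reads. Their other alternatives moved them by less than the spread between libraries, and with single libraries left out they ran from 11.6 to 11.8, from 1.99 to 2.22 and from 2.16 to 2.24 points. Called counts, in the report's order of comparisons, were 295, 155 and 244 with 20 reads in every library, which leaves fewer CpGs to test, 299, 391 and 528 for members with no neighbour, which are fewer members, and 598 in lung against liver beyond 50 kb. With the replicate block the moderated test called 0 in each, against 698, 784 and 1076 by edgeR with the block, and the cause of that gap was not tested. Without single libraries the counts ran from 519 to 683, 548 to 898 and 819 to 1254, the lowest for comparisons with liver being without liver of horse 1.

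No tissue difference in level passed its threshold, and several changed sign. Paired by horse, heart minus liver was -0.00431 points in mean level and 0.0328 points in the share at or below 20%, which was 0.119 points with 20 reads and 0.0518 points with dense windows of 20 CpGs. Lung minus liver in the share at or above 80% was -0.273 points for members with no neighbour. Without single libraries mean level ran from -0.0352 to 0.536 (lung minus heart), -0.00947 to 0.945 (lung minus liver) and -0.246 to 0.708 (heart minus liver), the share at or above 80% from -1.49 to 0.648, -0.816 to 1.32 and -0.205 to 1.39, and the share at or below 20% from -0.545 to -0.352, -0.845 to -0.184 and -0.397 to 0.264. Levels in single libraries are limited by depth, most in liver of horse 2 with a median of 15 reads.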
